A study of Mus musculus with 6 samples.

Results

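Ribosome footprints on genes of the integrated stress response were fewer in Mettl18 knockout (KO) than in wild-type (WT) pancreatic acinar cells. The 10 genes described are Atf4, Ddit3 (which encodes CHOP), Atf3, Asns, Psat1, Phgdh, Slc7a11, Chac1, Sesn2 and Trib3, each represented by 1 transcript row out of 142314 rows deposited. They were chosen as known members and targets of the pathway, with earlier results of these data known. Their rows were taken by transcript identifier and by a deposited length value equal to the number of protein residues minus 9. All 10 were found with the required length value. Footprints fell significantly on 8 of the 9 genes with enough counts to be tested, and 0 rose. Of all 30588 tested rows, 4.30% were called lower and 5.14% higher. Those rows are transcripts, so a gene can count more than once, and they were not matched to the 9 genes in footprint level. The count of rises was 0 in DESeq2 and limma-voom as well, and before p-values were adjusted. Ddit3, Trib3 and Slc7a11 changed most. These 3 genes alone were called when KO replicate 2 or KO replicate 3 was left out, or when that close pair was summed as 1 sample, where 0.954%, 0.985% and 1.13% of tested rows were called lower.

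The cells were 266-6, a mouse line derived from pancreatic acinar cells, which secrete digestive enzymes. METTL18 adds a methyl group to a histidine in RPL3, a protein of the large ribosomal subunit, and the study's title places it in translation and proteostasis of the pancreas. There were 3 WT and 3 Mettl18 KO libraries, and cells of both genotypes carried a plasmid for Reg1-FLAG and were grown for 48 h before lysis. The lysis buffer held 100 μg/ml cycloheximide, which holds ribosomes in place on the mRNA. The labels do not say how the knockout was made, whether it is 1 clone, or whether the replicates were separate cultures, so p-values measure only the spread among these 6 libraries, which may be technical. Mettl18 itself and the marker genes of acinar or other cells were not analysed here, because the files hold transcript identifiers without gene symbols.

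The integrated stress response is a shared answer of cells to amino acid shortage, unfolded protein in the endoplasmic reticulum, viral RNA and lack of haem. Each of these activates a kinase that phosphorylates the initiation factor eIF2α, which lowers translation in general while ribosomes that pass the upstream reading frames of the Atf4 mRNA reach its coding sequence more often. ATF4 then activates genes for amino acid synthesis and uptake, redox defence and, through CHOP, cell death. Acinar cells make large amounts of secreted protein and are known for a strong load on the endoplasmic reticulum. The files count footprints, and no matched RNA levels were used here, so a change in footprints can be one of mRNA level, of ribosomes per mRNA or of both. In these bulk libraries fewer cells of a type and less RNA per cell cannot be told apart.

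ATF4 acts at the C/EBP-ATF response element (CARE). Its core was searched as TGATGNAA on both strands in the 250 bases before each RefSeq transcription start given (build GRCm38.p6). The promoter table matched 10 of the 10 genes, with 11 promoters in all. Of the 10 genes, 4 held the core in any promoter, against 3.91% of 27025 genes with a promoter in the table. The related cyclic AMP response element, TGACGTCA, was found in 0 of the 10 and in 1.77% of those genes. The 10 genes were chosen as known members and targets of the pathway, and ATF4 acts at CARE. Their higher share with the CARE core is therefore not independent of that choice. The core lay in 4 promoter stretches, those of Asns, Chac1, Atf3 and Slc7a11. They are written 5′ to 3′ on the strand of the gene, with the core, or its reverse complement TTGCATCA, in capitals.
Asns (chr6:7693210-7693258, minus strand, directly before the start): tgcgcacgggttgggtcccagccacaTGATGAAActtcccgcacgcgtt
Chac1 (chr2:119351023-119351082, plus strand): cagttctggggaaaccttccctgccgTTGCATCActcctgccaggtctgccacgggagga
Atf3 (chr1:191183410-191183469, minus strand): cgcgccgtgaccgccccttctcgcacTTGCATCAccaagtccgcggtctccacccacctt
Slc7a11 (chr3:50443627-50443705, minus strand): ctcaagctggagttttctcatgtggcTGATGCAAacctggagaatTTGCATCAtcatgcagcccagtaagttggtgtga
Slc7a11 held 2 copies in opposite orientation, which began 66 and 47 bases before the start. The copy in Asns began 23 bases before the start, that in Atf3 110 bases and that in Chac1 193 bases. The stretches of Asns, Chac1 and Atf3 lay outside every annotated gene span, while that of Slc7a11 lay inside the annotated span of its own gene (chr3:50364936-50499087), which reaches further upstream. Such a match is a description of the letters, and a gene without one lacks them only in this window. The 4 genes with the core were spread over the results that follow: Asns and Slc7a11 fell, Chac1 did not pass the threshold and Atf3 was not tested.

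The libraries held 3792964 to 5131937 counts in WT and 5379044 to 7106203 in KO after rows with identical counts were kept once, so the KO libraries were the deeper ones. Levels below are CPM, the counts relative to the library total, scaled by the trimmed mean of M values (TMM). Fold changes are KO over WT with their standard error (SE), and a gene was called changed at an adjusted p under 0.05 in edgeR's quasi-likelihood test over all 30588 rows. In that test 1314 rows were lower in KO and 1571 higher. KO replicates 2 and 3 were the closest pair of libraries, with a chi-square per degree of freedom of 1.34. It was 5.40 and 5.86 between either of them and KO replicate 1, and 4.73 to 11.8 within WT. Between genotypes it ran from 9.24 to 25.1, so some WT libraries were as far from each other as from KO libraries. A value above 1 shows a difference beyond counting noise, and KO replicates 2 and 3 were kept as separate samples. Results are therefore also given with that pair summed as 1 sample.

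**Figure D1:**
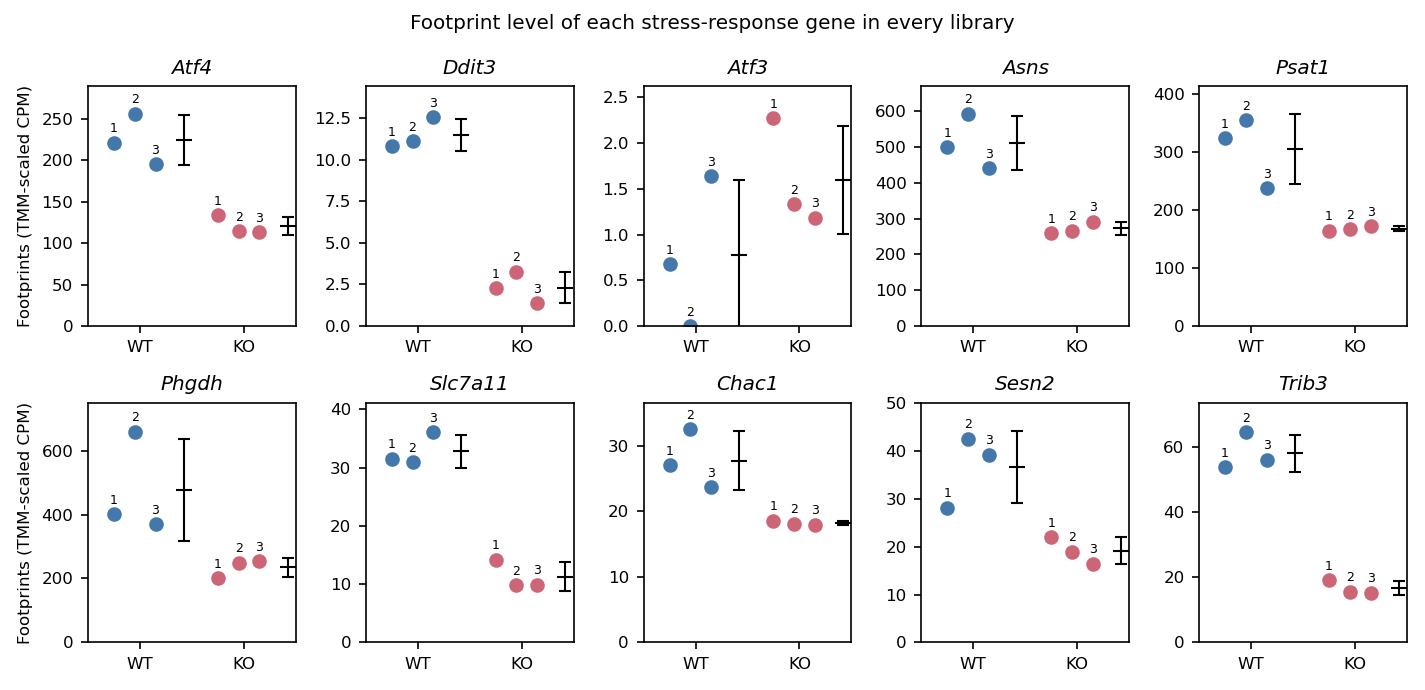
Footprint level of each gene (TMM-scaled CPM, linear axis from 0) in each library; numbers above the points are replicate numbers, and bars at the side show the mean ± SD of 3 libraries. The KO points lie below all WT points for every gene except Atf3, whose groups overlap.

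Atf4 encodes the transcription factor at the centre of the pathway, and its footprints were 1.86-fold lower in KO. Its WT libraries (transcript ENSMUST00000109605.4) had 221.3, 256.0 and 195.3 CPM and the KO libraries 133.6, 114.7 and 113.4 CPM. The lowest WT library was thus above the highest KO library. The mean went from 224.2 ± 30.5 to 120.6 ± 11.3 CPM (SD, n = 3 each), a log2 fold change of -0.89 ± 0.16 (SE; adjusted p = 0.0109). The row rested on 2978 counts in WT and 2290 in KO. With KO replicates 2 and 3 summed, the log2 fold change was -0.85 and the adjusted p 0.0869, and it was likewise above the threshold without KO replicate 2 (0.0973) or without KO replicate 3 (0.0912).

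Ddit3 showed the largest fall of the 10 genes. It encodes CHOP, a transcription factor induced downstream of ATF4 that promotes cell death in lasting stress. Its WT libraries (ENSMUST00000026475.14) had 10.8, 11.1 and 12.6 CPM, and its KO libraries 2.27, 3.26 and 1.38 CPM. The groups were far apart, with the highest KO library below 4 CPM. The log2 fold change was -2.28 ± 0.29 (SE; adjusted p = 0.00218), a 4.86-fold lower level in KO. Counts were low, at 48, 40 and 69 in WT and 16, 22 and 7 in KO, which gives a pooled WT-to-KO ratio of 4.86 and a 95% exact binomial interval of 3.47 to 6.93, which covers counting error only. Ddit3 reached the level of the filter on low counts, 1.90 CPM, in 3 WT and 2 KO libraries, and without that filter its adjusted p was 0.00168. Only 0.369% of tested rows had a lower log2 fold change.

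Atf3 encodes a stress-induced factor of the same family that ATF4 activates. Its row (ENSMUST00000027941.13) had 3, 0 and 9 counts in WT and 16, 9 and 6 in KO, and did not pass the filter on low counts. In WT replicate 2 a count of 0 allows a level of up to 0.834 CPM (3 counts). The other levels were 0.675 and 1.64 CPM in WT and 2.27, 1.33 and 1.18 CPM in KO, so the groups overlapped. It was the gene with the higher mean in KO, with a pooled KO-to-WT ratio of 1.85, whose exact binomial interval of 0.926 to 3.96 includes 1. Tested without the filter, its log2 fold change was 0.92 ± 0.67 (SE; edgeR adjusted p = 0.443). No difference of Atf3 was detectable at this depth.

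Footprints fell on all 3 enzymes of amino acid synthesis among the 10 genes, by 1.82-fold to 2.03-fold. Asns encodes asparagine synthetase, which makes asparagine from aspartate and glutamine. Its levels (ENSMUST00000031766.11) were 499.5, 592.4 and 441.3 CPM in WT and 258.9, 266.2 and 291.7 CPM in KO. Every KO library lay below every WT library, and the log2 fold change was -0.91 ± 0.17 (SE; adjusted p = 0.0128). A second row with the same length value held identical counts and was kept with it as 1 row. Phgdh and Psat1 encode the first and the second enzyme of serine synthesis from a glycolytic intermediate.

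Psat1 (ENSMUST00000025542.9) had 324.3, 355.0 and 237.6 CPM in WT and 164.6, 167.5 and 172.01 CPM in KO. The KO libraries were close to each other, with an SD of 3.75 CPM against 60.9 CPM in WT. The log2 fold change was -0.86 ± 0.18 (SE; adjusted p = 0.0186). Phgdh (ENSMUST00000065793.11) had 401.4, 659.2 and 368.8 CPM in WT and 201.3, 249.6 and 254.6 CPM in KO, with WT replicate 2 well above the other WT libraries. Its log2 fold change was -1.02 ± 0.24 (SE; adjusted p = 0.0286), and -0.70 without WT replicate 2. With KO replicates 2 and 3 summed, the adjusted p was 0.0849 for Asns, 0.108 for Psat1 and 0.116 for Phgdh, so none of the 3 was called then. Without KO replicate 2 the adjusted p values were 0.111, 0.124 and 0.127, in the same order. Leaving out KO replicate 3 instead gave 0.0804, 0.108 and 0.116. Psat1 and Phgdh were also not called without WT replicate 1 (adjusted p = 0.0592 and 0.0549), nor Phgdh without KO replicate 1 (0.0715).

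Of the 3 genes of redox defence and growth control, Slc7a11 and Sesn2 fell and Chac1 did not pass the threshold. Slc7a11 encodes the transport subunit of the cystine-glutamate exchanger, which brings in cystine for glutathione. Its row (ENSMUST00000029297.5) had 31.5, 30.9 and 36.0 CPM in WT and 14.2, 9.78 and 9.87 CPM in KO. All KO libraries were below 15 CPM and all WT libraries above 30 CPM, and the log2 fold change was -1.53 ± 0.20 (SE; adjusted p = 0.00217). Sesn2 encodes sestrin 2, a leucine sensor that restrains the growth regulator mTORC1. Its levels (ENSMUST00000030724.8) were 28.1, 42.5 and 39.1 CPM in WT and 22.0, 19.0 and 16.4 CPM in KO, where WT replicate 1 came nearest to the KO libraries. Its log2 fold change was -0.93 ± 0.20 (SE; adjusted p = 0.0205), with an adjusted p of 0.104 when KO replicates 2 and 3 were summed, 0.111 without KO replicate 2 and 0.119 without KO replicate 3.

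Chac1 encodes an enzyme that breaks down glutathione and is a target of ATF4, ATF3 and CHOP. Its row (ENSMUST00000028780.3) had 27.0, 32.5 and 23.7 CPM in WT and 18.6, 18.1 and 18.0 CPM in KO. The groups did not overlap, but its log2 fold change of -0.60 ± 0.17 (SE) had an adjusted p of 0.0583. This was the smallest change of the 9 tested genes. It was under the threshold with library sizes alone (adjusted p = 0.0258), with each library's length trend removed (0.0294) and without WT replicate 3 (0.0280), and ran up to 0.238 in the other alternatives.

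Trib3 encodes a pseudokinase that CHOP and ATF4 induce and that in turn holds back ATF4. Its row (ENSMUST00000040312.6) had 53.8, 64.5 and 56.1 CPM in WT and 19.2, 15.6 and 15.2 CPM in KO. The KO level was 3.48-fold lower, a log2 fold change of -1.80 ± 0.17 (SE) with the lowest adjusted p of the 9 tested genes (0.000367). Trib3 rested on 779 counts in WT and 317 in KO. Ddit3, Trib3 and Slc7a11 were called lower in every alternative in which they were tested (adjusted p up to 0.0157, 0.00626 and 0.0209). With KO replicates 2 and 3 summed or either of them left out, the adjusted p was up to 0.0113, 0.00626 and 0.0209.

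**Figure D2:**
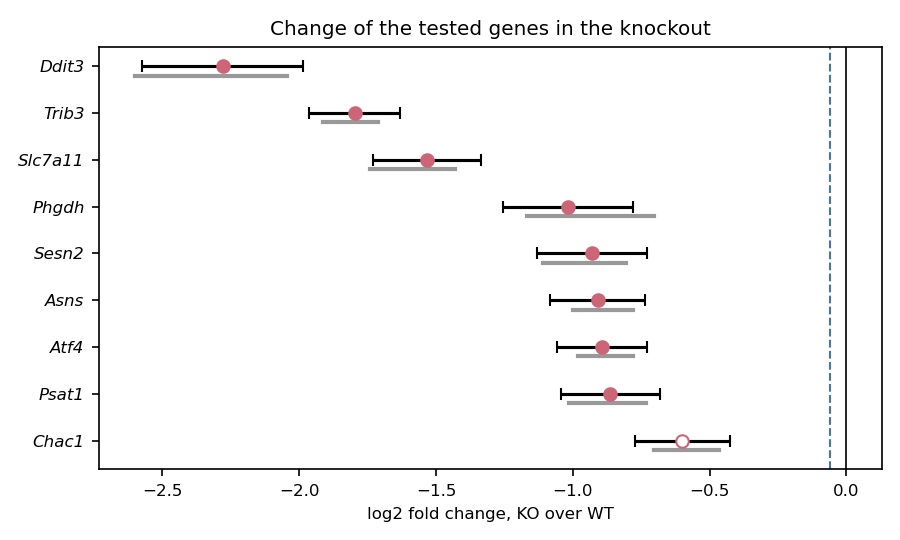
Log2 fold change, KO over WT, of the 9 tested genes (points ± SE), with the range over the alternative settings as a grey line under each point. Filled points passed the threshold; the dashed line is the median of all tested rows (-0.06), and all 9 genes lie to its left.

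Seen as a group, the 9 tested genes all had a log2 fold change under 0, as did 54.6% of all tested rows. Their median was -0.93, against -0.06 over all tested rows. KO and WT libraries did not overlap for these 9 genes, and the same was true in this direction for 15.3% of tested rows. Atf3, which was not tested, had overlapping libraries and a higher mean in KO. Without the filter on low counts, the median of the 10 genes was -0.90. The genes share a pathway and were chosen with earlier results of these data known, so they are not independent of each other and their counts are a description. With KO replicates 2 and 3 summed, 3 of the 9 were called, against 1.13% of rows called lower, and the median was again -0.93. The number was also 3 without KO replicate 2, where 0.954% of rows were called lower, and 3 without KO replicate 3, where 0.985% were. In each case the genes were Ddit3, Trib3 and Slc7a11.

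The summed level of the 10 genes was 1598, 2044 and 1412 CPM in WT and 836.9, 864.9 and 893.6 CPM in KO. The mean in WT was thus 1.95-fold that in KO. Asns, Phgdh and Psat1 weigh most in this sum, with WT means of 511.1, 476.5 and 305.6 CPM, so it says little about the genes with few counts. WT replicate 2 was the highest WT library for 7 of the 9 tested genes, and WT replicate 3 the lowest for 5. In the median log2 deviation of the tested genes from their 6-library mean, KO libraries varied less. It was -0.45, -0.48 and -0.53 in KO and 0.44, 0.69 and 0.26 in WT. The SD of this median was 0.04 in KO and 0.22 in WT, a spread that is small beside the distance between genotypes. The mean deviation of the same genes was -0.53, -0.57 and -0.72 in KO and 0.52, 0.79 and 0.50 in WT. By the mean, the smaller spread in KO was thus less clear. KO replicates 2 and 3 were also the closest pair of libraries.

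To see whether the targets fell by more than Atf4, each gene was set against Atf4 in the same library, which does not depend on how libraries are scaled. The KO libraries lay below all WT libraries in the ratio of Ddit3, Trib3 and Slc7a11 to Atf4. In that of Chac1 they lay above them, though no ratio could pass the threshold. All these ratios share Atf4, so they are not independent of each other. Atf4 had a log2 fold change of -0.89, against a median of -0.06 over all tested rows. A gene that fell less than Atf4 thus has a higher ratio in KO, as Chac1 did. How many of all rows would lie apart in this ratio was not computed. The log2 ratio of Ddit3 to Atf4 was -4.36, -4.53 and -3.96 in WT and -5.88, -5.14 and -6.36 in KO, a difference of -1.51. That of Trib3 was -2.04, -1.99 and -1.80 in WT and -2.80, -2.88 and -2.90 in KO, a difference of -0.92. For Slc7a11 the ratio was -2.81, -3.05 and -2.44 in WT and -3.24, -3.55 and -3.52 in KO, a difference of -0.67.

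For Chac1 the ratio to Atf4 was -3.04, -2.98 and -3.05 in WT and -2.85, -2.67 and -2.66 in KO, a difference of 0.30. Each of these 4 differences had an exact two-sided permutation p of 0.1, the smallest that 3 against 3 libraries allow, and 0.2 after Benjamini-Hochberg adjustment over 8 ratios. The other 4 genes overlapped between genotypes. Their ratios to Atf4 differed by -0.01 for Asns, -0.03 for Sesn2, 0.05 for Psat1 and -0.09 for Phgdh (exact permutation p = 1.0, 0.8, 0.6 and 0.8). The largest SD of these ratios within a genotype was 0.33. The differences of these 4 genes lay within the spread between libraries, which does not show that they changed exactly as Atf4 did, and the design cannot pass a threshold of 0.05 for any ratio.

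**Figure D3:**
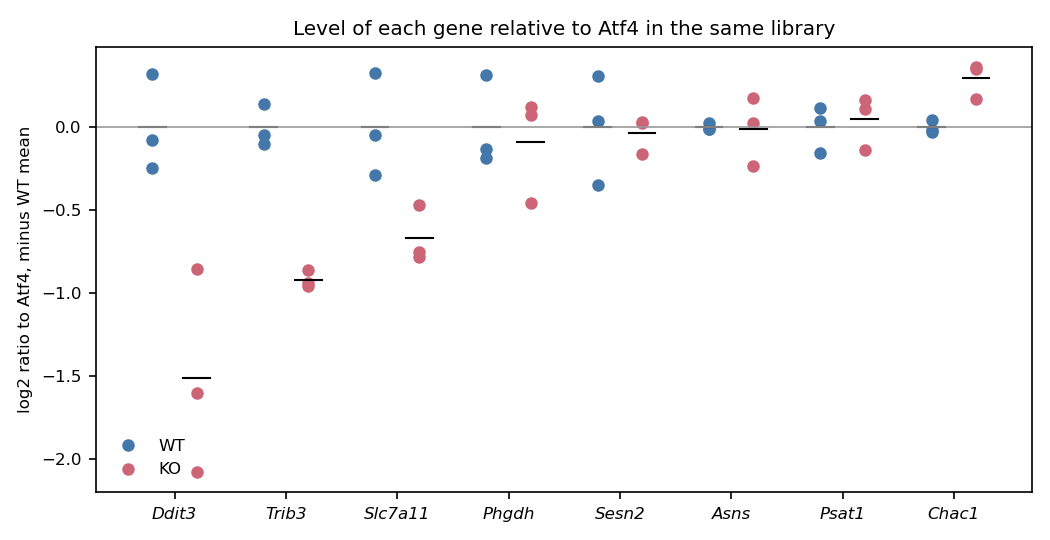
Log2 ratio of each gene to Atf4 in the same library, shown as the difference from the WT mean of that ratio (y axis, log2 units); points are libraries and bars are means of 3. The KO points of Ddit3, Trib3 and Slc7a11 lie below all WT points, those of Chac1 above them, and the other 4 genes overlap.

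Levels of different genes were compared as CPM per 100 units of the deposited length value. In WT the amino acid enzymes were densest, with 92.6 ± 13.8 for Asns, 90.9 ± 30.4 for Phgdh and 84.7 ± 16.9 for Psat1 (SD, n = 3), which did not differ beyond their spread. Atf4 followed at 65.9 ± 8.96, and Trib3 at 16.8 ± 1.64 and Chac1 at 13.0 ± 2.09 came well below it. Sesn2 at 7.77 ± 1.60, Ddit3 at 7.23 ± 0.591 and Slc7a11 at 6.65 ± 0.574 could not be ordered, and Atf3 was lowest at 0.448 ± 0.479.

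In KO the same 3 enzymes led, at 49.3 ± 3.12 for Asns, 46.5 ± 1.04 for Psat1 and 44.9 ± 5.61 for Phgdh, and Atf4 had 35.5 ± 3.34. Chac1, at 8.51 ± 0.153, stood above Trib3, at 4.82 ± 0.633, so these genes changed places between the genotypes. Sesn2 had 4.06 ± 0.595, Slc7a11 2.29 ± 0.511, Ddit3 1.45 ± 0.591 and Atf3 0.928 ± 0.342. CHOP footprints in KO were thus near those of Atf3 per length, from a level in WT that was near those of Sesn2 and Slc7a11. These values take the length as the part of the coding sequence that was counted, which the sources do not state.

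**Figure D4:**
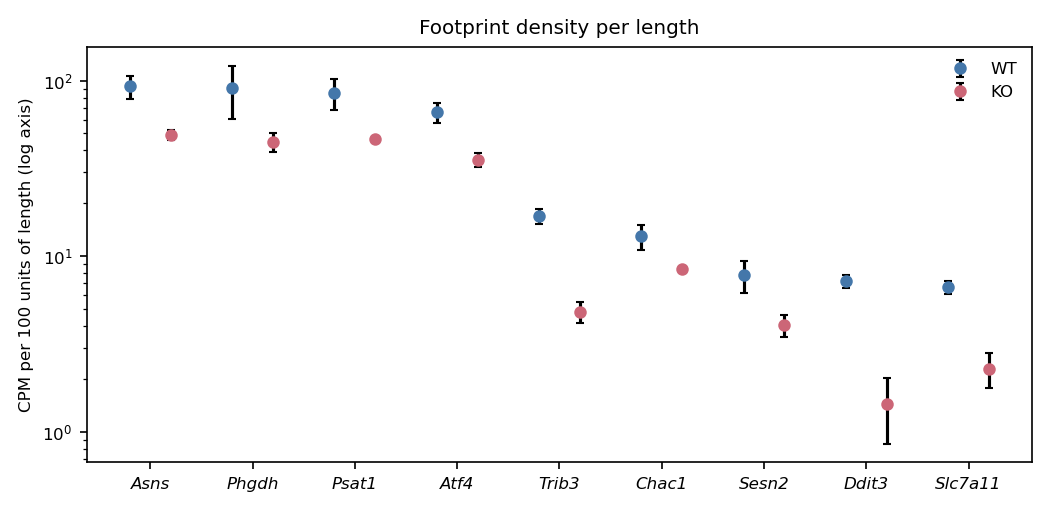
Mean footprint density, in CPM per 100 units of the deposited length value (log axis), of the 9 tested genes in WT and KO; bars are SD of 3 libraries. Asns, Phgdh, Psat1 and Atf4 are the densest in both genotypes, and Trib3 and Chac1 change places.

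**Figure D5:**
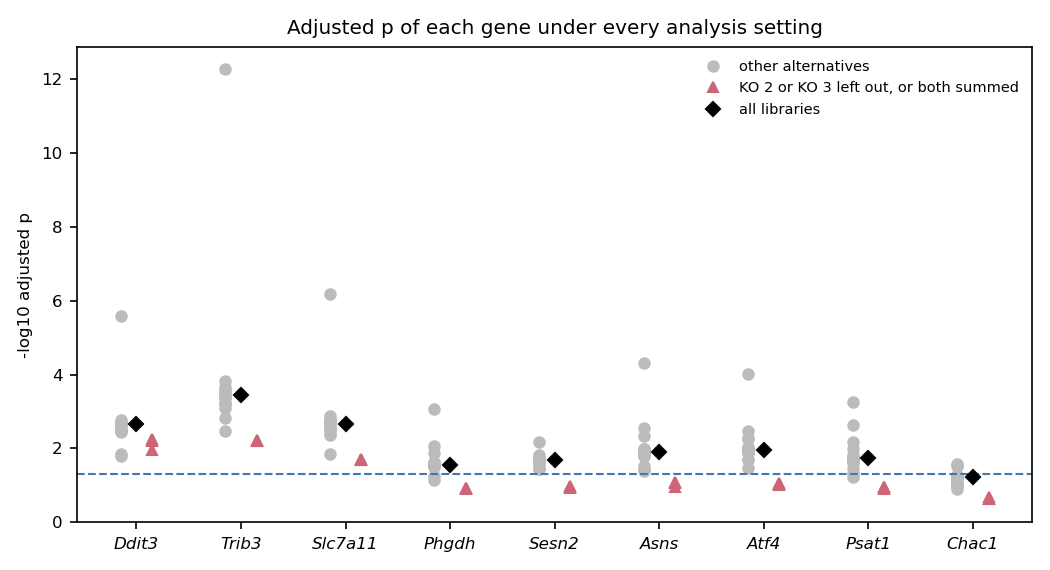
Adjusted p (as -log10, y axis) of each tested gene with all libraries (diamonds), with KO replicate 2 or 3 left out or both summed (triangles), and under the other alternatives (grey points); the dashed line is the threshold of 0.05. The triangles of Ddit3, Trib3 and Slc7a11 stay above the line, and those of the other 6 genes lie below it.

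The size of the changes moved less than their adjusted p. With KO replicates 2 and 3 summed or either of them left out, the log2 fold change of Atf4 was -0.85 in all 3 cases, that of Asns -0.96 to -0.89 and that of Trib3 -1.75 to -1.74. Ddit3, with the fewest counts, moved most, from -2.60 to -2.05. No tested gene changed direction in any alternative.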

How the data were processed

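The authors deposited raw counts of ribosome footprints per Ensembl transcript, 1 file per library, with a length value whose unit no header states. The submitters' processing notes name STAR 2.7.0a, UMI-tools 1.1.2, cutadapt 3.7, CASAVA 1.8 and build mm10; what each did, the counting program and the strand setting are not given in the labels or headers. The RefSeq tables used for promoters (GRCm38.p6) pair no Ensembl identifiers with symbols, so the symbols of the 10 genes come from the list that defines them, checked by length value, and the other genes of the pathway fixed for counting were not analysed here. The genes and lists were chosen with earlier results of these data known, and all 10 are named whatever their values.

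Of 54710 rows with a count, 39355 distinct rows were kept, and 30588 passed filterByExpr (minimum count 10). The test was edgeR 4.0.16 (R 4.3.3) with TMM scaling, quasi-likelihood, a genotype term alone and Benjamini-Hochberg adjustment over all rows; it was tested on simulated data. Each SE is the absolute log2 fold change divided by the root of the F statistic. The 17 alternatives were other scalings and filters, limma-voom (limma 3.58.1), DESeq2 1.42.0, a replicate block, unmerged rows, the length trend, the close KO pair and leaving out each library. Of the planned ratios to Atf4, that of Atf3 could not be formed because 1 library had a count of 0.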

Additional observations from a re-analysis of the deposited data

How the results depend on the processing

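The 9 tested genes kept their direction in all 17 alternatives (16 for Ddit3, which the filter of 10 counts in every library removed), and their median log2 fold change, -0.93, ran from -1.11 to -0.78 with each library left out. With KO replicates 2 and 3 summed as 1 sample, 436 rows were called higher and 356 lower, 3 of the 9 genes were called, and the log2 fold changes of those that lost their call were -0.85 for Atf4, -0.93 for Asns, -0.87 for Psat1, -1.07 for Phgdh and -0.87 for Sesn2; this fit has fewer samples. Leaving out each library gave 368 to 2223 rows called higher, 302 to 1718 called lower and 3 to 9 of the genes called lower. The log2 fold changes then ran from -0.98 to -0.78 for Atf4, -1.001 to -0.78 for Asns, -1.01 to -0.73 for Psat1, -1.17 to -0.70 for Phgdh, -1.11 to -0.81 for Sesn2 and -0.70 to -0.47 for Chac1. Chac1 was called with library sizes alone (-0.68) and with the length trend removed (-0.60); the cause was not tested. Library sizes alone moved the rises from 54.5% to 44.4% of all calls and the median of all rows from -0.06 to -0.14. With the replicate block, 1168 rows were higher and 944 lower, and 8 of the 9 genes were called lower; same-numbered libraries correlated at -0.06, 0.43 and -0.40, so the numbers are not taken to pair them. Depth limits Atf3 and widens the interval of Ddit3.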
